A study of Mus musculus with 45 samples.

Results

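The genes described here encode the subunits of the proteasome, measured in the hippocampus of mice by RNA sequencing. They were chosen by symbol: protein-coding genes named Psma, Psmb, Psmc or Psmd with a number, without the inducible subunits Psmb8 and Psmb9. This gave 37 of the 15897 genes in the table, of which 16 belong to the core particle and 20 to the regulatory particle. The remaining gene, Psmc3ip, shares only the letters of the name and encodes a protein of meiotic recombination, so it was kept out of both particles. Psma8, the testis form of an alpha subunit, is not analysed here.

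The samples were hippocampi of 45 female mice, 1 library per mouse, all on a C57Bl/6J background. The wild-type littermates (AwTw) carried neither transgene. A+Tw mice carried APPswe/PS1dE9, in which a chimeric mouse/human amyloid precursor protein and a human presenilin are driven together by the mouse prion protein promoter. AwT+ mice carried human Tau P301L under the CaMKII promoter, which acts in forebrain neurons, and A+T+ mice carried both transgenes. From 7 to 13 months of age the mice were fed a standard diet (STD, 5% fat and 0% cholesterol) or a typical Western diet (TWD, 21% fat by weight, 0.15% cholesterol and 35% sucrose). The STD groups held 4 A+T+ mice, 5 A+Tw mice, 6 AwT+ mice and 6 AwTw mice, and the TWD groups 6 mice of each genotype.

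The proteasome degrades proteins that carry a chain of ubiquitin. Its core particle is a barrel of alpha rings, which form the gate, and beta rings, which hold the cutting sites. The regulatory particle caps the barrel, binds the ubiquitin chain, removes it, and unfolds the protein with a ring of ATPases. In neurons, proteasomes take part in the turnover of synaptic proteins. Proteins that can aggregate in neurodegeneration, such as tau, are among the substrates studied.

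The values deposited by the authors are variance-stabilized counts on a log2-like scale, so a difference of 1 is close to a doubling for well-expressed genes. The sources used here give a minimum depth for the study but not the number of reads behind each mouse, and the precision given here is the spread between mice. As a check of the labels, A+ carriers exceeded non-carriers by 0.90 ± 0.049 (SE) for App and by 1.11 ± 0.045 for Prnp, whose promoter drives the transgene (limma adjusted p = 3.89e-18 and 5.00e-22). The tau transgene could not be checked in this way, since the reads behind the table were aligned to mouse transcripts. Defining markers of hippocampal neurons (Prox1, Wfs1, Neurod6, Zbtb20 and Fibcd1) were well above the floor of the table in every mouse, with list means from 10.5 to 11.1. The labels name 2 batches, with 20 mice in batch 0 and 25 in batch 1. Batch 0 held a single A+Tw/STD mouse and 4 A+Tw/TWD mice.

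The members were well expressed, apart from a few specialised forms. Compared per length of transcript, by subtracting the log2 of the length in kb from the mean value, Psmb6 was the highest of the 36 subunit genes (11.2 on the log2 scale per kb) and encodes one of the catalytic beta subunits. It was followed by the ATPases Psmc3 and Psmc5 (both 10.7), by Psmb5 (10.6), the chymotrypsin-like catalytic subunit, and by Psmc1 (10.5). The order between Psmc3 and Psmc5 is within their spread. The beta ring had a median of 10.4, the ATPase ring 10.3, the alpha ring 9.47 and the non-ATPase subunits 9.08. The chaperones that assemble the base of the regulatory particle (Psmd5, Psmd9 and Psmd10) lay below all ring subunits, between 6.42 and 7.56. The lowest ring subunit, Psma3, was at 7.78, and its order against Psmd9 is within its spread (residual SD 0.778). These levels depend on the annotated transcript, which for Psma3 has 2846 bases, of which 765 are coding. Psmb11, which replaces a beta subunit in the thymus, was lowest at 3.27. Its unscaled mean was 5.36, near the lowest gene mean of the table (4.55).

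Psmd10 shares its values, mouse for mouse, with another gene of the table that has no symbol in the annotation used. Such copies of an earlier gene's values were found for 157 genes. Whether these genes share reads was not tested, so the values may not be those of Psmd10 alone. GENCODE lists processed pseudogenes named after Psmb5 (1), Psmb6 (2) and Psmb7 (1). None of these pseudogenes is in the table, and values of their parent genes are uncertain to the extent that reads were divided between them.

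The first question was whether TWD changed the proteasome genes irrespective of genotype. Of the 37 members, 20 passed the threshold (limma, Benjamini-Hochberg adjusted p under 0.05), 19 of them higher and 1 lower on TWD. Over all genes 29.4% passed, 16% higher and 13.4% lower. The median difference, TWD minus STD, was 0.157 over the core particle and 0.111 over the regulatory particle, against -0.00138 over all genes. Among the core genes 8 of 16 rose and none fell. Among the regulatory genes 10 of 20 rose and 1 fell. The remaining call was Psmc3ip, which is no subunit but is counted among the 37 members here and below.

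**Figure D1:**
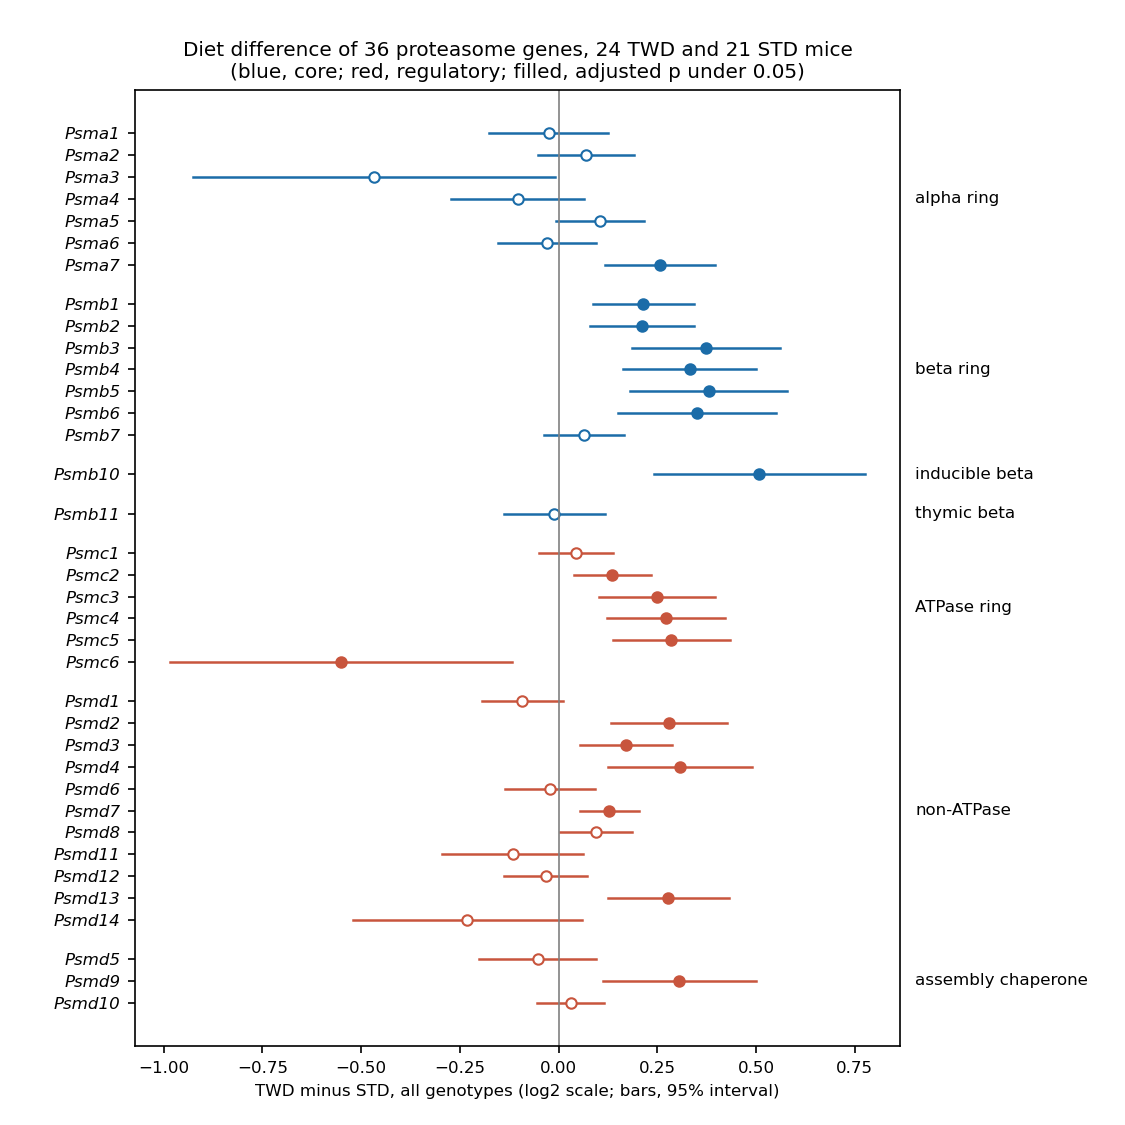
TWD minus STD for each of the 36 subunit genes on the log2 scale, with 95% intervals, ordered by role. Filled points passed the adjusted threshold. Of the 7 beta ring genes 6 are filled and right of 0, whereas of the 7 alpha ring genes only Psma7 is filled.

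In the beta ring 6 of 7 genes rose, with a median of 0.332. Within batches the beta median was 0.174 in batch 0, close to that of the alpha ring (0.164), and 0.406 in batch 1, where the alpha median was -0.11. Psmb5 had values of 9.79, 10.2 and 11.1 on STD (lowest, median and highest of 21 mice) and 10.1, 10.5 and 11.3 on TWD (24 mice). Mice on TWD were shifted upwards, but the ranges overlapped over most of their width. The difference was 0.38 ± 0.099 (adjusted p = 0.0157), a ratio of 1.30. Psmb6, the caspase-like subunit, ran from 10.2 to 11.4 on STD with a median of 10.6 and from 10.4 to 11.6 on TWD with a median of 11.0. It rose by 0.35 ± 0.099 (adjusted p = 0.0159). The structural subunits Psmb3 (0.37 ± 0.093) and Psmb4 (0.33 ± 0.084) rose as well, both with adjusted p = 0.0157, and Psmb1 and Psmb2 rose by 0.21 each. Psmb7, the trypsin-like subunit, was the exception in this ring, with a median of 10.5 on STD and 10.6 on TWD. Its difference was 0.06 ± 0.050, with a 95% interval from -0.037 to 0.164, and did not pass (adjusted p = 0.32).

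Psmb10, which replaces Psmb7 in proteasomes of immune and interferon-exposed cells, had the largest rise of the 37 members. On STD it ran from 8.09 to 9.71 with a median of 8.66, and on TWD from 8.42 to 10.0 with a median of 9.20. The rise was 0.51 ± 0.133 (adjusted p = 0.0157), a ratio of 1.42. The other inducible subunits, which lie outside the rule, had differences of 0.25 ± 0.091 for Psmb8 (adjusted p = 0.0334) and 0.23 ± 0.098 for Psmb9 (adjusted p = 0.0627), so the first passed and the second did not. Bulk tissue cannot tell a larger number of the cells that express these subunits from more RNA per cell.

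In the alpha ring 1 of 7 genes passed, and the median was -0.0251. Psma7 rose, from a median of 10.0 on STD to 10.3 on TWD, by 0.26 ± 0.069 (adjusted p = 0.0157). The other alpha genes did not pass, and their differences lay between -0.47 and 0.10. Psma3 had the widest spread of all members, with values from 8.07 to 10.5 on STD and from 7.75 to 10.5 on TWD. Its difference of -0.47 ± 0.227 did not pass (adjusted p = 0.106). Between mice of a group the residual SD of Psma3 was 0.778, larger than that of 98.2% of all genes.

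In the regulatory particle, 4 of the 6 ATPases rose and 1 fell. Psmc5 rose by 0.29 ± 0.073 (adjusted p = 0.0157), Psmc4 by 0.27 ± 0.074 (adjusted p = 0.0158), Psmc3 by 0.25 and Psmc2 by 0.14. Psmc6 went the other way, by -0.55 ± 0.215 (adjusted p = 0.0482), close to the threshold. Its values ran from 8.58 to 10.5 on STD with a median of 9.46 and from 6.68 to 10.5 on TWD with a median of 9.33. The medians were therefore close, and the lower TWD mean (8.99 against 9.55) came with a tail of low mice. The lowest, A+T+/TWD replicate 1, lay far below the next A+T+/TWD mouse (6.68 against 9.33), and without it the difference was -0.45 and did not pass (adjusted p = 0.0804). Leaving out single mice ended the call of Psmc6 for 23 of the 45 mice.

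Of the 11 non-ATPase subunits 5 rose. Psmd2, a scaffold subunit of the base, had values of 11.0, 11.3 and 12.0 on STD and 11.2, 11.7 and 12.1 on TWD (lowest, median and highest). It rose by 0.28 ± 0.073 (adjusted p = 0.0157). Psmd4, a receptor for ubiquitin chains, rose by 0.31 ± 0.090 (adjusted p = 0.0172), and its median was 10.4 on STD and 10.8 on TWD. Psmd13 rose by 0.28 ± 0.075 (adjusted p = 0.0157), Psmd3 by 0.17 ± 0.057 (adjusted p = 0.0269) and Psmd7 by 0.13 ± 0.037 (adjusted p = 0.0172), all of them subunits of the lid. Psmd7 also had the smallest spread between mice of all members (residual SD 0.109). Psmd14, the deubiquitinase of the lid, had a median of 9.73 on STD and 9.64 on TWD, and its difference of -0.23 ± 0.143 did not pass (adjusted p = 0.206).

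Of the assembly chaperones, Psmd9 rose by 0.31 ± 0.096 (adjusted p = 0.0214). Psmd5 (-0.05 ± 0.074, 95% interval -0.202 to 0.0956) and Psmd10 (0.03 ± 0.042, 95% interval -0.0538 to 0.115) did not pass. Psmc3ip, which is no subunit, rose by 0.20 ± 0.071 (adjusted p = 0.0308).

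**Figure D2:**
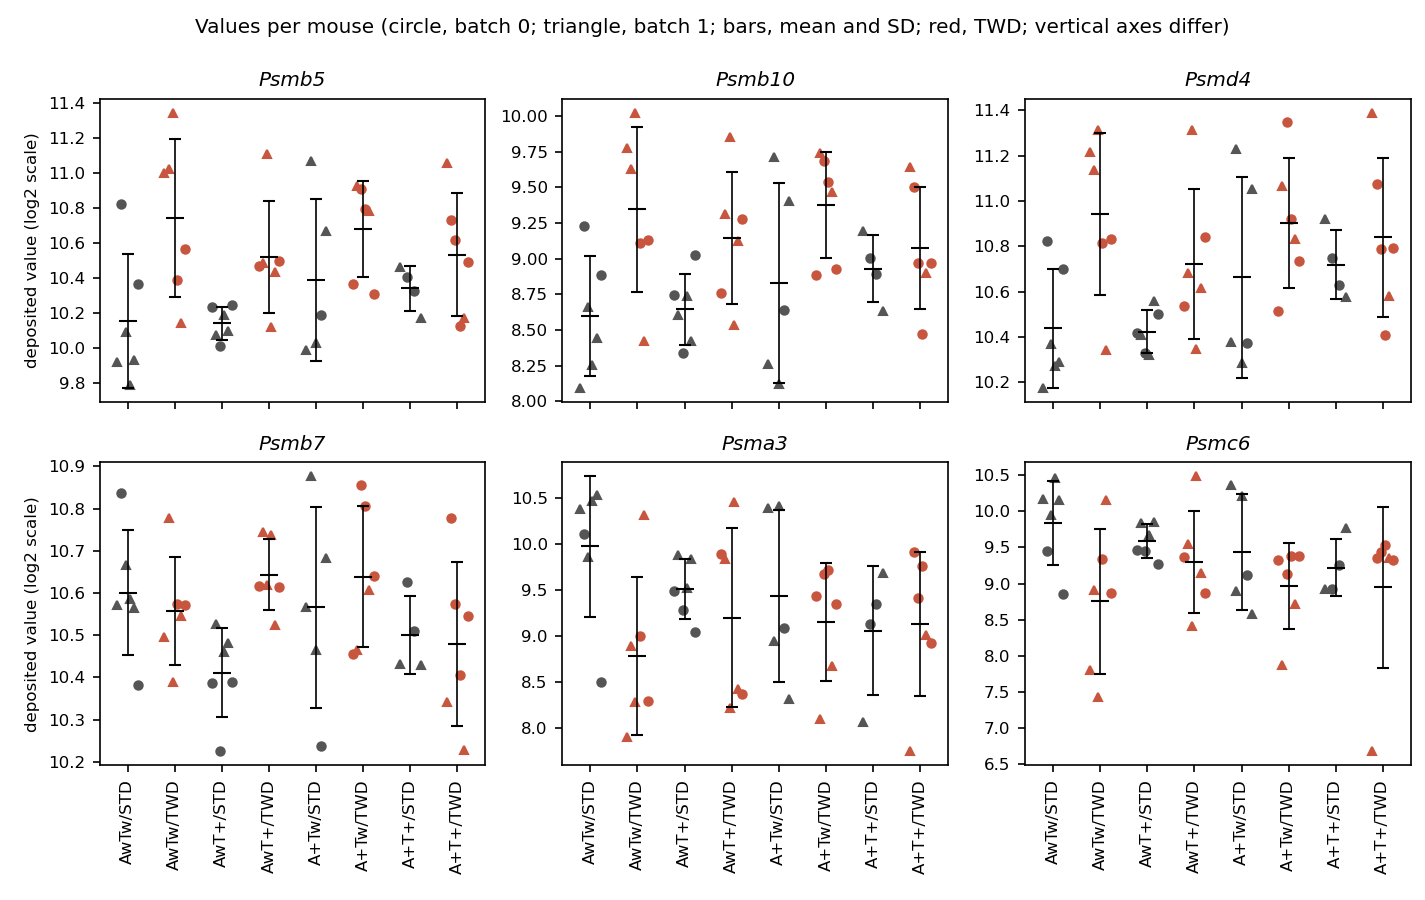
Deposited values (log2 scale) of 6 members in each mouse by group, with mean and SD. Circles are batch 0 and triangles batch 1, and TWD groups are red. For Psmb5, Psmb10 and Psmd4 the TWD mean is above the STD mean in each genotype but single mice overlap, and for Psma3 and Psmc6 the triangles spread wider than the circles (for Psmc6 from 6.68 to 10.5, against 8.85 to 9.53).

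The mice differed in how their values followed GC content. When the values of all genes were regressed on transcript GC content and length in each mouse, the slope on GC ran from -0.483 to 0.271 per 10% GC on STD (median -0.0906) and from -0.379 to 0.655 on TWD (median 0.0486). In batch 0 the slopes were small in both diets, from -0.212 to 0.165. In batch 1 their medians were -0.204 on STD and 0.184 on TWD. Leaving out the 3 mice with the steepest slopes (A+T+/TWD replicate 1, AwTw/TWD replicate 3 and AwTw/STD replicate 4) reduced the genes past the threshold from 4678 to 1, and the members from 20 to 0. Their slopes (0.655, 0.588 and -0.483) lay on the same side as the medians of their diets. The choice of mice can therefore by itself lower a difference that follows GC content. Leaving out 3 other mice was not tried for comparison. The sizes of the differences changed less than the counts. Without these mice the median was 0.16 over the core particle and 0.0983 over the regulatory particle, 29 of 37 members were above 0, and 20 had an unadjusted p under 0.05, against 29.7% of all genes.

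**Figure D3:**
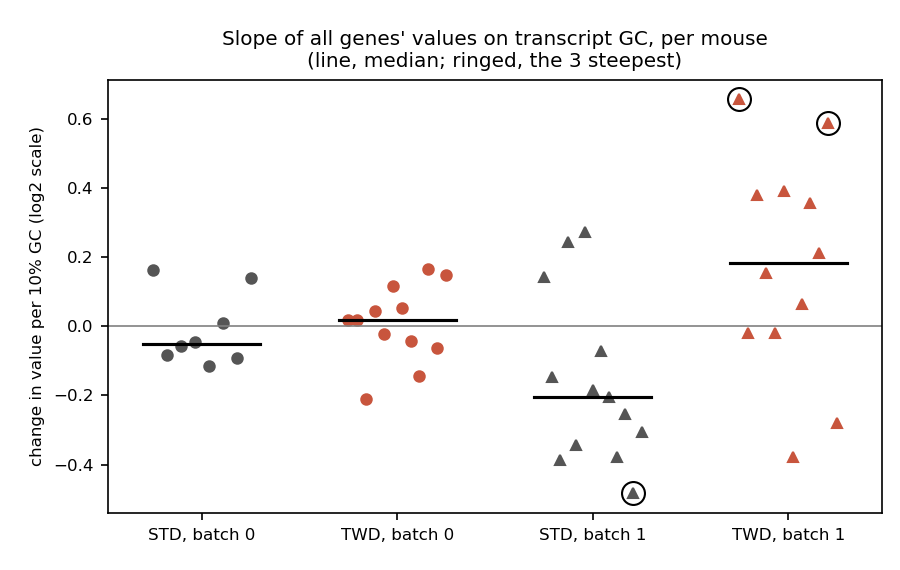
Slope of all genes' values on transcript GC content in each of the 45 mice (log2 scale per 10% GC), by batch and diet. Lines are medians, and rings mark the 3 steepest mice. Batch 1 spans from -0.483 to 0.655, and batch 0 stays between -0.212 and 0.165.

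The batches were also tested apart. In batch 0 (8 STD and 12 TWD mice) none of 15897 genes passed, and 2 of the 37 members had an unadjusted p under 0.05, against 5.55% of all genes. Of the 37 members 36 were above 0 there, against 52% of all genes, and the medians were 0.165 for the core particle and 0.12 for the regulatory particle. These genes share the same libraries and are not independent replicates. By genotype in batch 0, 15 members were above 0 in AwTw (48.4% of all genes) and 34 in AwT+ (53.4%). There were 36 in A+Tw (49.9%), with a single STD mouse, and 30 in A+T+ (50.4%). In batch 1 (13 STD and 12 TWD mice) 22 members passed, 18 higher and 4 lower, where 40.9% of all genes passed. The medians there were 0.142 and 0.126. Over the 36 subunit genes, 21 were higher on TWD in both batches, 14 were higher in batch 0 and lower in batch 1, and 1 was lower in both.

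Individual genes showed where the batches parted. Psmb5 was higher by 0.17 in batch 0 and by 0.57 in batch 1, and Psmb10 by 0.22 and 0.76. Psmc6 differed by 0.05 in batch 0 and by -1.13 in batch 1, Psmd14 by 0.15 and -0.60, and Psma3 by -0.03 and -0.96. Tested as an interaction of diet and batch in the additive fit, the difference between batches was -1.27 ± 0.405 for Psmc6 and -0.82 ± 0.272 for Psmd14, neither past the threshold (limma adjusted p = 0.125 for both). By this interaction none of the members and none of all genes passed, whereas 13 members and 28% of all genes had an unadjusted p under 0.05.

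The order of the members by diet difference followed their base composition and, less closely, their transcript length. Across the 36 subunit genes, the difference and the GC content of the longest principal transcript had a Pearson's r of 0.815 and a Spearman's rho of 0.822. Over all 15695 genes with a transcript the values were 0.619 and 0.645, so the relation is not one of proteasome genes alone. These are descriptions across genes, which share the same libraries and are not independent replicates. Of the 17 subunit genes with at least 50% GC, 15 rose and none fell (median 0.28), and of the 19 below 50%, 3 rose and 1 fell (median -0.0251). Over all genes, 26.5% of those with at least 50% GC rose, and 4.53% of those below. In batch 0 r with GC content was 0.470 and in batch 1 it was 0.827. With the log2 of transcript length, r was -0.428 across the 36 genes and -0.441 over all genes. In batch 0 r with length was -0.537, larger in size than that with GC content, and in batch 1 it was -0.390.

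The coding sequences themselves show the contrast in GC content. The stretches below cover 30 codons, from the same coding position in each gene, of members at both ends of the order. The genes were chosen after their values were seen, and capitals mark G or C in the last position of a codon. They were read from GENCODE M21 transcripts (GRCm38).
Psmb5: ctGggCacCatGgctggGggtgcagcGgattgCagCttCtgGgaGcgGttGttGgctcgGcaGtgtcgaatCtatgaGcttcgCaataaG
Psmb3: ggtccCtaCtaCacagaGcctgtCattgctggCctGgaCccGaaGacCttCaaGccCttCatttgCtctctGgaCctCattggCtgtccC
Psmb10: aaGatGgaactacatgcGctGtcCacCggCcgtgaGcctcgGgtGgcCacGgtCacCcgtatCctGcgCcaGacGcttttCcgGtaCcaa
Psmc6: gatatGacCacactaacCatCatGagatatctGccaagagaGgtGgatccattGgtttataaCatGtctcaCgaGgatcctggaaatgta
Psma3: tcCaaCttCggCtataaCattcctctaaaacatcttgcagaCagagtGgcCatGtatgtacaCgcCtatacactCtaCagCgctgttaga
Psmd14: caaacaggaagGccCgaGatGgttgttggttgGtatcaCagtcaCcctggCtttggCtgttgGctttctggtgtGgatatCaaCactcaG
Of the 30 codons in each stretch, 20 end in G or C in Psmb5, 21 in Psmb3 and 22 in Psmb10. The count is 13 in Psmc6 and 14 in both Psma3 and Psmd14. Over the whole coding sequence the share of last codon positions with G or C was 66.3% in Psmb5 (chr14:54614119-54618022), 72.7% in Psmb3 (chr11:97703399-97713500) and 64.5% in Psmb10 (chr8:105935735-105938444). It was 36% in Psmc6 (chr14:45329788-45349705), 36.5% in Psma3 (chr12:70974621-70996347) and 41% in Psmd14 (chr2:61711694-61800376). The first set rose on TWD, and of the second set Psmc6 fell.

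When a smooth trend over length and GC content was removed from each mouse, 13 members passed, all of them higher, and 11.3% of all genes passed. They comprised 8 core and 5 regulatory genes. The medians were 0.0965 for the core and 0.0776 for the regulatory particle, and r with GC content was 0.414. Psmb10 was at 0.31 (adjusted p = 0.0226), Psmb3 0.18 (adjusted p = 0.0212), Psmb5 0.16 (adjusted p = 0.0241) and Psmd2 0.26 (adjusted p = 0.0226), all by limma. Psmc6 was at -0.29 and no longer passed (adjusted p = 0.0866), and Psmd4 was at 0.13 (adjusted p = 0.0595). Psmd3 was at 0.0074 (adjusted p = 0.886). With the trend over GC content alone removed, 22 members passed, all higher, where 19.5% of all genes passed, and the medians were 0.205 for the core and 0.14 for the regulatory particle, both above those of the deposited values. Psmb5 was then at 0.26 (adjusted p = 0.0157), Psmb10 at 0.39 (adjusted p = 0.0157), Psmc6 at -0.22 (adjusted p = 0.141) and Psmd3 at 0.03 (adjusted p = 0.466). With the trend over length alone removed, 14 members passed, all higher, where 19.7% of all genes passed, and the medians were 0.0842 and 0.0444.

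**Figure D4:**
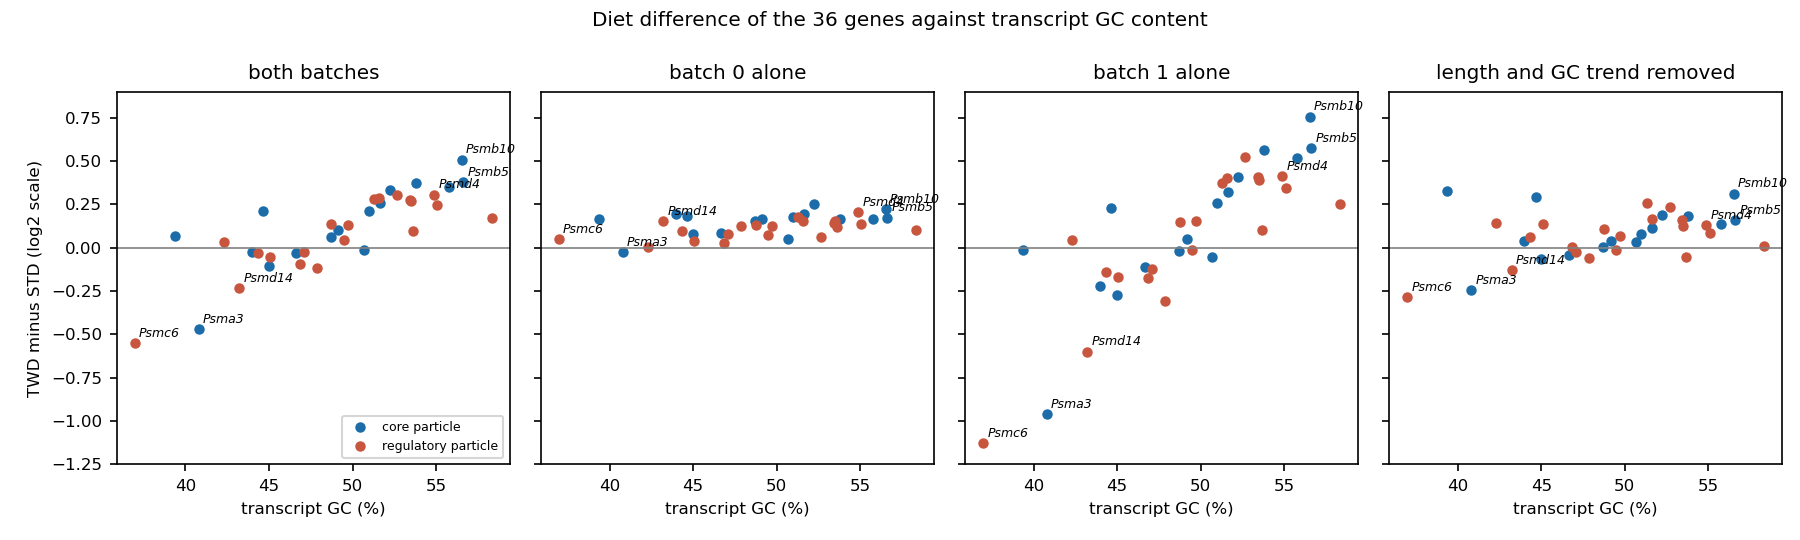
TWD minus STD (log2 scale) of the 36 subunit genes against transcript GC content (%), in both batches, in each batch alone and after removal of a length and GC trend. Core genes are blue and regulatory genes red. The slope is steep in batch 1, with Psmc6 at -1.13 and Psmb10 at 0.76. It is shallower in batch 0 (Pearson's r of 0.470), where all genes but Psma3 (-0.026) are above 0.

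The promoters were searched for the antioxidant response element, TGACNNNGC, through which Nfe2l1 is known to raise proteasome genes when proteasome activity is low. Windows of 300 bases, from 250 before to 50 after each RefSeq start, were found for 31 of the 37 members. A match on either strand was present in 5 of these members, Psmb5, Psmb6, Psmd9, Psmd12 and Psmc6, and in 15.2% of the 33 member windows. The share among all 32851 windows was 12.39%. Of the 5 members with a match, 3 rose on TWD, and of the 26 without, 11 rose. The 250 bases before the start are shown for the catalytic subunits Psmb5 and Psmb6, which rose, and for Psmc6, which fell (RefSeq, GRCm38.p6), with the matching letters in capitals.
Psmb5, chr14:54617996-54618245, - strand: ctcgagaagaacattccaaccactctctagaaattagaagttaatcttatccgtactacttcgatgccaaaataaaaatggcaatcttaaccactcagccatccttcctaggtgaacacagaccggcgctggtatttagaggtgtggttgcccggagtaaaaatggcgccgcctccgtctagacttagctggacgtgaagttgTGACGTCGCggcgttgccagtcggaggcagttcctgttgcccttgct
Psmb6, chr11:70525107-70525356, + strand: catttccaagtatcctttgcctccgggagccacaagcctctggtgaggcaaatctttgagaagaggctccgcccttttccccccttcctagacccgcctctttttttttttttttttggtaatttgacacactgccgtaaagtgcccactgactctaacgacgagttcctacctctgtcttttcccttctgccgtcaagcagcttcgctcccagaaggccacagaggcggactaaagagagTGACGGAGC
Psmc6, chr14:45329574-45329823, + strand: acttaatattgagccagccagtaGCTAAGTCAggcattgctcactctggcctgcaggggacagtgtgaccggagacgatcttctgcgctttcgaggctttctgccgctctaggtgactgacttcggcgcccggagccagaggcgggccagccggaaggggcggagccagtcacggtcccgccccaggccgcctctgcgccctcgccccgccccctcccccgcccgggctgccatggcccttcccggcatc
The match starts 47 bases before the start of Psmb5, 9 before that of Psmb6 and 227 before that of Psmc6. A match of letters is no evidence that a factor binds. The CCAAT box, also searched on both strands, was present in 39.4% of member windows and 37.4% of all windows. Of the 13 members with it 5 rose, and of the 18 without it 9 rose.

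The next question was in which genotypes the diet difference was seen. In AwTw mice 5 of the 37 members passed, all higher, where 9.35% of all genes passed (6.01% higher and 3.34% lower), and all 5 had the same adjusted p of 0.0498, just under the threshold. In each of the transgenic genotypes none of the members and none of all genes passed (0%). At an unadjusted p under 0.05 there were 21 members in AwTw mice (40.2% of all genes), 10 in AwT+ mice (7.44%), 3 in A+Tw mice (4.43%) and 0 in A+T+ mice (2.57%). The interactions, which compare the diet difference of each transgenic genotype with that of AwTw, gave none past the threshold either, for members or for all genes (0%), with 4 members for AwT+ (4.02% of all genes), 0 for A+Tw (2.21%) and 1 for A+T+ (6.3%) at an unadjusted p under 0.05. The genotypes were therefore not shown to differ in their response.

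The 5 genes that passed in AwTw mice were Psmb3, Psmb5, Psmb6, Psmd3 and Psmd13. Psmb6 had 10.2, 10.4 and 11.1 in AwTw/STD (lowest, median and highest of 6 mice) and 10.5, 11.2 and 11.6 in AwTw/TWD. It rose by 0.60 ± 0.188. Psmb5 had 9.79, 10.0 and 10.8 against 10.1, 10.8 and 11.3, and it rose by 0.59 ± 0.192. Psmb3 rose by 0.59 ± 0.176, Psmd13 by 0.45 ± 0.144 and Psmd3 by 0.36 ± 0.109. The groups overlapped for each of these genes. Psmb10 had a larger difference of 0.75 ± 0.256 that did not pass (adjusted p = 0.0503), nor did Psmd4 (0.51 ± 0.174, adjusted p = 0.0505).

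The number of members called in AwTw mice varied from fit to fit. It ranged from 0 (for example without A+Tw/TWD replicate 1) to 22 (without AwTw/TWD replicate 5) when single mice were left out. The shares of all genes in those fits are not given here. It was 0 in a fit of the AwTw groups alone, where 0.00629% of all genes passed. There 18 members and 33.9% of all genes had an unadjusted p under 0.05. The median GC slope was -0.28 in AwTw/STD and 0.181 in AwTw/TWD mice, the lowest and the highest of the 8 groups. Within batch 0, with 2 AwTw mice on each diet, the medians were -0.0447 over the core and -0.0353 over the regulatory particle, and Psmb5 was at -0.12.

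In the transgenic genotypes most members were above 0 as well. The core median was 0.141 in AwTw mice, 0.0862 with both transgenes, 0.0975 in A+Tw mice and 0.258 in AwT+ mice. The regulatory median was 0.171 in AwTw mice, 0.0116 with both transgenes, 0.0706 in A+Tw mice and 0.157 in AwT+ mice. Of the 37 members 22 were above 0 in AwTw mice, 27 in A+T+ mice, 25 in A+Tw mice and 34 in AwT+ mice. In A+T+/STD mice Psmb5 had the values 10.2, 10.3, 10.4 and 10.5, and A+T+/TWD mice ran from 10.1 to 11.1 with a median of 10.6. In A+Tw/STD mice Psmb5 had the values 9.99, 10.0, 10.2, 10.7 and 11.1, and A+Tw/TWD mice ran from 10.3 to 10.9 with a median of 10.8. The highest A+Tw/STD mouse thus lay above all A+Tw/TWD mice, and the next one among them. The largest gap between genotypes for Psmb5 was between A+T+ and AwTw, -0.39 with a 95% interval from -0.974 to 0.19.

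**Figure D5:**
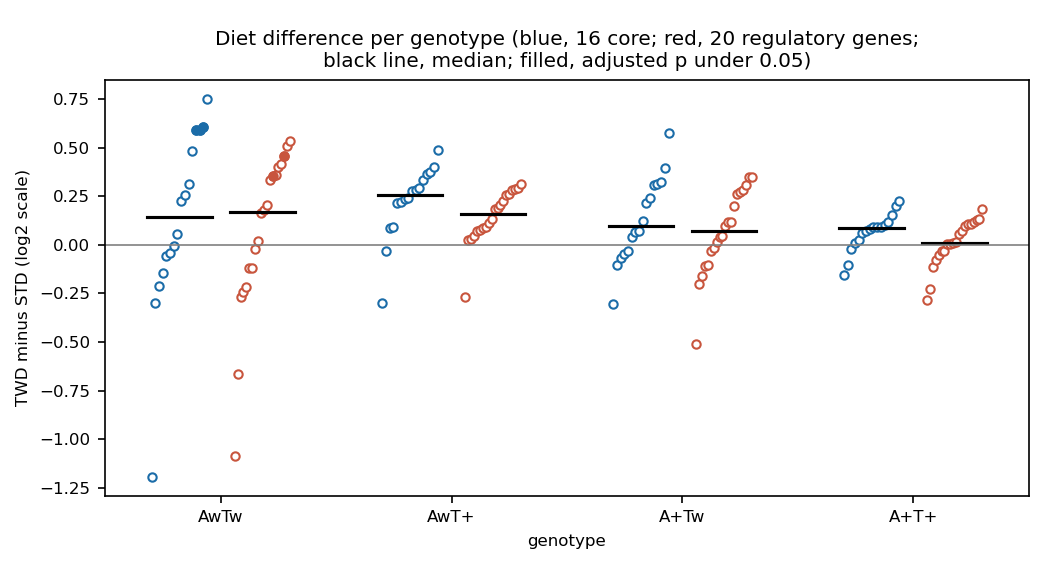
TWD minus STD (log2 scale) of each subunit gene within the 4 genotypes, with core genes in blue and regulatory genes in red. Black lines are medians and filled points passed the adjusted threshold. The spread is widest in AwTw, from -1.19 for Psma3 to 0.75 for Psmb10, and the core median is highest in AwT+ (0.258).

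In the comparisons of genotypes none of the 37 members passed. These comparisons share the AwTw mice of each diet. For A+Tw against AwTw none of the members passed on STD, where 0.925% of all genes did (0.918% higher and 0.00629% lower), or on TWD, where 0.824% did (0.818% higher and 0.00629% lower). For A+T+ against AwTw none passed on STD, where 1.32% of all genes did (1.22% higher and 0.101% lower), or on TWD, where 0.73% did (0.692% higher and 0.0377% lower). For AwT+ against AwTw no gene of the table passed on either diet (0%). At an unadjusted p under 0.05 there were 2 members in AwT+ on STD (Psma6 at -0.25 and Psmb7 at -0.19), 2 in A+T+ on TWD (Psmd7 at -0.16 and Psmd8 at -0.22), and 0 in the other 4 comparisons. The shares of all genes were 2.39% in AwT+ on STD, 7.76% in A+T+ on TWD, and from 3.04% to 14.3% in the other 4. When all A+ carriers were compared with all non-carriers, none of the members passed, against 3.77% of all genes (3.11% higher and 0.661% lower), and 1 had an unadjusted p under 0.05, against 15.1% of all genes. That member was Psmb11, with -0.16 ± 0.066 (limma adjusted p = 0.204). The inducible subunits outside the rule did pass in this comparison: Psmb8 was higher in A+ carriers by 0.63 ± 0.094 (adjusted p = 5.33e-06) and Psmb9 by 0.38 ± 0.101 (adjusted p = 0.0205). The carrier medians of the members were 0.0453 over the core and 0.00224 over the regulatory particle.

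The mean over the core genes was also taken in each mouse, as a description. On STD the core mean was 9.74 ± 0.187 in AwTw (SD, n = 6), 9.63 ± 0.081 in AwT+ (n = 6), 9.77 ± 0.245 in A+Tw (n = 5) and 9.71 ± 0.053 in A+T+ (n = 4). On TWD it was 9.86 ± 0.141, 9.85 ± 0.114, 9.90 ± 0.164 and 9.78 ± 0.194 (n = 6 each). The TWD mean was the higher in each genotype, and the ranges overlapped in each. In AwT+ they overlapped only at their edge, where STD mice ended at 9.722 and TWD mice began at 9.717.

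Genes that act with the proteasome were read from lists, in the comparison of diets irrespective of genotype. Of 16 caps, inhibitors, assembly factors and accessory proteins, 7 rose and 3 fell, where 29.4% of all genes passed. The assembly chaperones Psmg3 (0.34 ± 0.081) and Psmg4 (0.34 ± 0.090), the ubiquitin receptor Adrm1 (0.33 ± 0.089) and the small lid subunit Sem1 (0.31 ± 0.085) rose, with adjusted p of 0.0157 for the first 3 and 0.0159 for Sem1. Psmf1, an inhibitor of the core particle, rose by 0.17 ± 0.056 (adjusted p = 0.023). The other 2 that rose were Psme1 and Psme2, which form a cap together, and the 3 that fell were the cap Psme4, the deubiquitinase Usp14 and the ligase Ube3c.

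Of the 4 genes of the Nfe2l1 feedback, by which cells raise proteasome genes, only Ddi2 passed, the protease that activates Nfe2l1, and it fell by 0.20 on the log2 scale (adjusted p = 0.0481). Nfe2l1 itself was at -0.09 ± 0.052 (adjusted p = 0.163). Of 16 genes of ubiquitin, its activation and its shuttles, 5 rose and 1 fell. For both lists the share of all genes that passed was 29.4%. The hydrolase Uchl1 rose by 0.38 ± 0.095 and the receptor Sqstm1 by 0.31 ± 0.076. The ligase Stub1 rose by 0.29 ± 0.079 and the polyubiquitin gene Ubb by 0.24 ± 0.079. The adjusted p of these 4 genes ran from 0.0157 to 0.0242. The activating enzyme Uba6 fell by 0.51 on the log2 scale (adjusted p = 0.0378).

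Of 51 markers of cell types 12 rose and 6 fell on TWD, a share of 35.3%, against 29.4% of all genes. Of 8 microglial markers 3 rose and 1 fell (Aif1 0.45, C1qa 0.41, Tmem119 0.30 and P2ry12 -0.36), and their mean level ran from 8.85 to 9.87 on STD and from 8.996 to 9.89 on TWD. Of 5 genes of plaque-associated microglia 2 rose, with mean levels from 5.78 to 9.32 on STD and from 6.00 to 9.12 on TWD. Of 8 neuronal markers 2 rose and 1 fell, with mean levels from 13.0 to 13.4 on STD and from 12.9 to 13.5 on TWD, and of 5 hippocampal neuron markers none passed (1 at an unadjusted p under 0.05). Of 6 astrocyte markers 1 rose and 3 fell, with mean levels from 11.7 to 12.2 on STD and from 11.3 to 12.3 on TWD. Of 6 oligodendrocyte markers 3 rose, with mean levels from 12.4 to 13.0 on STD and from 12.3 to 13.0 on TWD. Of 5 endothelial markers 1 rose and 1 fell, with mean levels from 8.18 to 8.88 on STD and from 8.07 to 8.91 on TWD. None of 8 choroid plexus markers passed (1 at an unadjusted p under 0.05), but all were below 0 (median -0.52), and their mean level varied from 6.53 to 11.2 between mice. Averaged over all 45 mice, no marker was at the floor of the table, whose lowest gene mean is 4.55. Genes of plaque-associated microglia were higher in A+ carriers (Cst7 by 4.13), and their levels in non-carriers alone are not given here. The part of these cell types in the differences of the proteasome genes was not tested.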

How the data were processed

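RNA from the hippocampus of 45 mice was sequenced from poly(A) libraries as single reads. The authors used Trimmomatic 0.38 for trimming and Bowtie2 2.2.3 to discard ribosomal and mitochondrial reads, then quantified mouse transcripts (mm10) with kallisto 0.44.0 and summed them per gene. The authors kept genes with a mean count above 10 and deposited variance-stabilized values on a log2 scale (DESeq2 1.22.2), from which batch had been removed with limma 3.38.3. Batch was removed without the design: the means of both batches are equal for every gene. Depth per mouse is unknown, so precision rests on the spread between mice.

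Genes were tested on the deposited log2 values with limma 3.58.1 in R 4.3.3 (empirical Bayes with a mean trend), two-sided. The p-values of all 15897 genes were adjusted together by Benjamini and Hochberg's method, and 0.05 was the threshold. Diet irrespective of genotype was estimated with genotype and batch as additive terms, and the other contrasts with the 8 groups and batch. Symbols, lengths and GC content came from GENCODE M21 (GRCm38), with the longest principal transcript of each gene, and were found for 98.73% of genes. Promoters came from RefSeq (GRCm38.p6). Tables were handled in Python 3.11.15 with pandas 2.3.3 and numpy 2.4.6. The diet fit was tested on simulated data, where 51 of 100 genes changed by 0.3 and 90 of 100 changed by 0.6 passed, with 7 false calls. The simulated noise was independent between genes, so variation that genes share within a mouse was not covered.

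The members and lists were chosen with earlier results of these data known. Named were, per particle, the 5 members with the smallest adjusted p irrespective of genotype and the 3 with the smallest in AwTw, the member furthest against the majority, members with a fixed role (Psmb5, Psmb6, Psmb7, Psmb10, Psmd2, Psmd4, Psmd5, Psmd9, Psmd10, Psmd14), and at most 5 genes of each list past the threshold. Other genes named were chosen after their values were seen. Paaf1, on the list of accessory proteins, was not found. The values of 1 gene on the ubiquitin list are not reported here. Alternatives were to drop the batch term, to use either batch by itself, quantile normalization, a filter on low means and other empirical Bayes settings. Others were fits of the compared groups, a nuisance score, removal of length and GC trends, copied rows counted once, and each mouse left out. For the nuisance score, gene weights came from the main axis of residual variation, and the full values of each mouse were projected on them. The score was not independent of diet. In AwTw mice it ran from -1.95 to 0.246 on STD and from -1.16 to 2.30 on TWD. Removal of either trend alone, omission of the 3 steepest mice and the interaction of diet and batch were chosen after seeing the data.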

Additional observations from a re-analysis of the deposited data

Results flagged for a closer look

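Within groups of 4 to 6 mice, single mice were compared with the rest of their group by Dixon's test for the 20 named genes and the particle means, and 8 of 176 groups (4.55%) held a mouse beyond the 95% limit. Chance alone gives about 1 in 20 groups. Psmc6 stood out most: A+T+/TWD replicate 1 was at 6.68, with the other 5 mice between 9.33 and 9.53. Psma3 was at 8.51 in AwTw/STD replicate 6, with the others between 9.86 and 10.5. Psmd14 was at 8.89 in A+Tw/TWD replicate 2, with the others between 9.60 and 9.89. Psmd5 was high at 9.51 in A+T+/STD replicate 2 and at 9.65 in AwT+/STD replicate 2, where the others reached 9.33 and 9.35. The core mean was low at 9.48 in AwT+/STD replicate 3 (others from 9.63) and high at 10.1 in AwTw/STD replicate 2 (others to 9.76). The regulatory mean was high at 10.4 in AwTw/TWD replicate 2 (others to 10.2). All mice were kept in the fits.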

How the results depend on the processing

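For diet irrespective of genotype, 20 members passed, where 29.4% of all genes passed. None passed (core 0, regulatory 0) in batch 0, with the nuisance score, or without the 3 steepest mice. The shares of all genes there were 0%, 0% and 0.00629%. The nuisance score was not independent of diet, so the fit with it can also take out part of a diet difference. With length and GC trends removed 13 passed (regulatory 5), where 11.3% of all genes passed. With the length trend alone removed it was 14 (core 7, regulatory 7), against 19.7% of all genes. With the GC trend alone removed it was 22 (core 10, regulatory 11), against 19.5%. Leaving out single mice gave 16 to 21 (core 8 to 9, regulatory 8 to 11), and the shares of all genes in those fits are not given here.

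For AwTw mice, 5 passed (core 3, regulatory 2), where 9.35% of all genes passed. None passed (0) in batch 0, with quantile normalization, without a mean trend, with robust empirical Bayes, with the compared groups alone, with the nuisance score, with any trend removed, or without the 3 mice. The share of all genes was 0.00629% with the compared groups alone and 0% in the rest of these fits. Without the batch term, and with the filter on low means, 13 passed (core 6, regulatory 7), where 15.7% and 23.9% of the genes tested passed. In batch 1 it was 16 (core 7, regulatory 9), where 25% of all genes passed. Leaving out single mice gave 0 to 22 (core 0 to 8, regulatory 0 to 13), again without shares of all genes given here.

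Signs or sizes changed as follows, and the cause was not tested. Irrespective of genotype, Psmd5 (-0.05) was at 0.040 in batch 0, 0.039 with the nuisance score, 0.14 with both trends removed, 0.097 without the GC trend, 0.046 without the length trend and 0.013 without the 3 mice. Psmc6 and Psmd14 were at 0.049 and 0.15 in batch 0, and at 0.064 and 0.16 with the nuisance score, where Psma3 was at 0.11. Psmb7 was at -0.016 in batch 1 and -0.052 without the length trend, and Psmd10 at -0.066 without it.
In AwTw mice of batch 0, Psmb3, Psmb5 and Psmd13 were at -0.0058, -0.12 and -0.0072, and the medians of the core and regulatory particles at -0.0447 and -0.0353. The regulatory median in AwTw was 0.041 with the nuisance score and 0.055 without the length trend. In A+Tw mice of batch 0 the medians were 0.421 and 0.223, and the core median in A+T+ mice of batch 1 was -0.101.

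Counts in the other comparisons were 0 in every fit that left out a single mouse. No paired analysis was possible because the labels give no replicate numbers shared between groups. Depth per mouse is unknown, and removal of batch from the deposited values before testing leaves p-values for contrasts that are uneven over batches uncertain.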
